A study of Mus musculus with 62 samples.

Results

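Vipr2, Gpr176, Prokr2, Adcyap1r1 and Avpr1a encode receptors through which peptides act on the suprachiasmatic nucleus (SCN), together with an orphan receptor of the same tissue. They were chosen by gene symbol and found in the count tables by Ensembl identifier. They made up 5 of the 12483 genes with counts in the series. All 5 had a row in the SCN table of 12047 genes, and 2 of them, Gpr176 and Adcyap1r1, had a row in the table of 11569 genes for the NAc (nucleus accumbens) and the PFC (prefrontal cortex). Vipr2, Prokr2 and Avpr1a were not analysed in NAc and PFC.

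The SCN is the hypothalamic nucleus that holds the master circadian clock of mammals, and its neurons stay in step with each other partly through peptides. Vipr2 is the VPAC2 receptor for vasoactive intestinal peptide (VIP) and pituitary adenylate cyclase-activating polypeptide (PACAP), and signals through Gs and cyclic AMP. Adcyap1r1 is the PAC1 receptor, which prefers PACAP and is found in neurons and glia of many brain regions. Prokr2 is the receptor for prokineticin 2, an output signal of the SCN. Avpr1a is the V1a receptor for arginine vasopressin and signals through Gq and phospholipase C. Gpr176 is an orphan receptor of SCN neurons that acts through Gz, a G protein that lowers cyclic AMP.

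The study exposed C57BL/6J mice of both sexes to circadian rhythm disruption (CRD) by repeated reversals of the light/dark cycle in adolescence, or, per the labels, in adulthood, and handled control mice at matched times without a change in lighting. Brains were taken at ZT6, about 4 weeks after the paradigm ended, and SCN, NAc and PFC were punched from frozen tissue, with 1 mouse per library. The 62 libraries came from 26 mouse numbers, with 19 SCN, 26 NAc and 17 PFC libraries. The labels name adolescent and adult CRD for these libraries, whereas the study's methods name adolescent CRD and matched controls for tissue collection, and which holds was not settled here. The labels give region and mouse number for each library but not CRD, control or sex, so the comparisons below are between regions and across libraries of 1 region, and each group may mix these conditions.

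Total counts ranged from 16496666 to 35389742 in SCN, from 28879724 to 60009482 in NAc and from 31216225 to 50333579 in PFC. Mouse numbers ended at J1021 in a lower range and began at J1140 in an upper one, and these ranges were treated as possible batches. Whether the regions were prepared and sequenced together is not given in the sources used here, and region and preparation cannot be told apart. All 8 SCN neuron markers listed for the check (Six6, Lhx1, Syt10, Nms, Vip, Grp, Avp and Prok2) had counts above 0 in every SCN library, and their summed level ranged from 71.5 to 401 CPM (normalised read count, scaled to the library's total). Several SCN libraries stood apart. SCN J1199 and SCN J1140 held the highest sums of striatal projection neuron markers, 215 and 113 CPM against a median of 25.5 CPM over all SCN libraries. SCN J1199 also had the lowest sum of SCN neuron markers and SCN J1018 the second lowest, at 95.2 CPM. In SCN J1165 the X-inactivation transcript Xist was at 47.2 CPM, against 0.617 CPM in NAc J1165 and 0.39 CPM in PFC J1165, so this library differed from the others under its number. Values without some of these libraries are given beside part of the ranges, regional differences and slopes below.

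The upstream regions of Vipr2, Prokr2 and Avpr1a are shown because the first pair of transcripts moved most closely together across SCN libraries and because the third was the 1 of 5 that held a motif searched for. Each is the 250 bases before the transcription start in RefSeq on GRCm38.p6, read 5′ to 3′ on the gene's own strand. Capitals mark the letters TGACG, the core of the cAMP response element.
Vipr2, chr12:116077476-116077725, plus strand: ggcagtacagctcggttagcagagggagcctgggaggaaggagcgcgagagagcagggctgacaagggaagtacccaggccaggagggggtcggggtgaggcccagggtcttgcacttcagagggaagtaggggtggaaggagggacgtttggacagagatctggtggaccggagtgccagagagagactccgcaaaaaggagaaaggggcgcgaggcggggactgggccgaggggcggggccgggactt
Prokr2, chr2:132385448-132385697, minus strand: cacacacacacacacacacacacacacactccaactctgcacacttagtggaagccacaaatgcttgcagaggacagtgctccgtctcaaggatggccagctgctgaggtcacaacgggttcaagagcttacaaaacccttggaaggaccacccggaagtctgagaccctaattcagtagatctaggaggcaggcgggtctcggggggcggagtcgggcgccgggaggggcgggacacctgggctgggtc
Avpr1a, chr10:122448249-122448498, plus strand: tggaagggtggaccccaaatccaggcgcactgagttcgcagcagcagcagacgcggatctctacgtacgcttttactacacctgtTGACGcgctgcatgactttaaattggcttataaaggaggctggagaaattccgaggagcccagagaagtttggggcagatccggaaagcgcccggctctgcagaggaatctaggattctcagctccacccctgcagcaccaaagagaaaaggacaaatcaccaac

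All 5 genes were matched to RefSeq by symbol. The upstream windows were searched on both strands for the E-box CACGTG, at which the clock proteins CLOCK and BMAL1 bind, the cAMP response element TGACGTCA, its core TGACG, which lies within the full element, and the D-box TTATGTAA. The single match was a TGACG in Avpr1a, on the gene's strand, from 165 to 161 bases before the start. Over 32851 upstream windows of the same length from 27025 genes, TGACG was found in 17.8%, CACGTG in 6.02%, TGACGTCA in 1.55% and TTATGTAA in 0.819%. The windows of Vipr2, Gpr176, Prokr2 and Adcyap1r1 held none of these letters. GC content was 65.2% for Vipr2, 64.0% for Gpr176, 59.2% for Prokr2, 65.6% for Adcyap1r1 and 53.6% for Avpr1a, against a median of 52.4% over all windows.

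The transcript levels of the 5 receptors in SCN were first compared. In GRCm38, Adcyap1r1 lies at chr6:55451978-55501451, Gpr176 at chr2:118277110-118373419, Prokr2 at chr2:132337733-132385447, Vipr2 at chr12:116077726-116146261 and Avpr1a at chr10:122448499-122453452, and all are annotated as protein coding. Adcyap1r1 had a lowest, median and highest level of 111, 150 and 178 CPM over 19 SCN libraries. Per kilobase of exon it was the most abundant, with a median of 22.7 CPM, against 3.32 for Prokr2, 2.97 for Vipr2, 2.72 for Gpr176 and 1.52 for Avpr1a. The order of the middle 3 was not fixed across libraries. The ratio of Prokr2 to Vipr2 per kilobase ran from 0.803 to 1.64 with a median of 1.13, and that of Vipr2 to Gpr176 from 0.165 to 1.99 with a median of 1.05. Of the exon bases of Gpr176, 3.41% are shared with the annotated gene Gm29232, and reads there may have been left out as ambiguous. The other 4 receptors share no exon bases with another gene.

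Vipr2 and Prokr2 varied far more between SCN libraries than Adcyap1r1 did. Vipr2 ranged from 1.32 CPM in SCN J1199 through a median of 13.3 to 27.9 CPM in SCN J965, which is 21.2-fold and rests on 33 to 1503 counts, and without SCN J1199 the range was 12.4-fold from 2.25 CPM in SCN J1018. Prokr2 ranged from 3.83 CPM in SCN J1199 through a median of 26.3 to 65.5 CPM in SCN J1160, which is 17.1-fold with or without SCN J1199. Avpr1a, the least abundant, ranged from 1.5 CPM in SCN J1018 through a median of 4.05 to 7.33 CPM in SCN J1141, on 34 to 289 counts. The spread of the other receptors was narrower. Gpr176 ranged from 6.98 CPM in SCN J1199 through 10.6 to 14.5 CPM in SCN J1159, a 2.07-fold range, and Adcyap1r1 had a 1.60-fold range. The coefficient of variation was 61.2% for Prokr2, 57.7% for Vipr2, 36.2% for Avpr1a, 20.2% for Gpr176 and 12.9% for Adcyap1r1, and the median over all 12047 genes was 19.9%. Of those genes, 97.2% varied less than Prokr2, 96.7% less than Vipr2 and 17.7% less than Adcyap1r1.

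**Figure D1:**
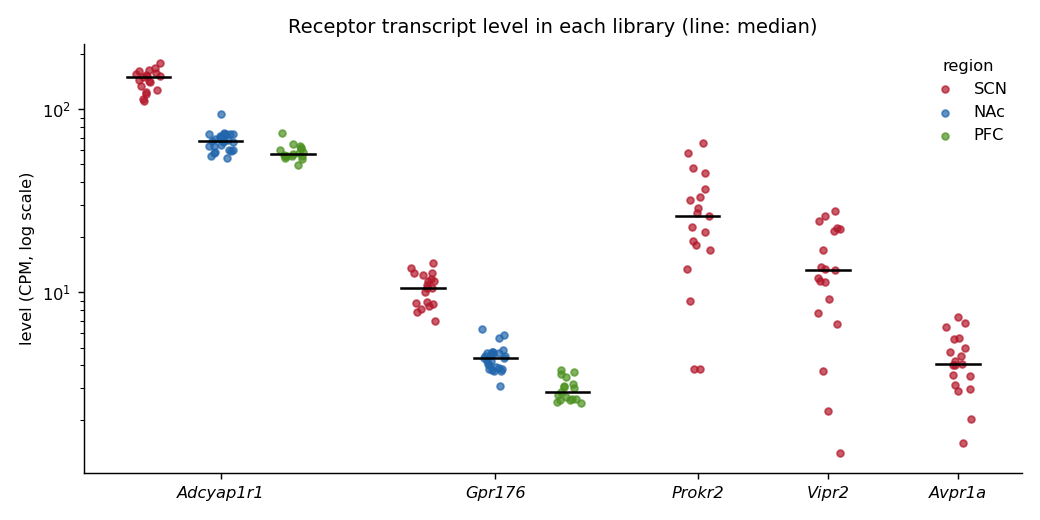
Level of each receptor in every library, in CPM on a log scale, with SCN in red, NAc in blue and PFC in green; each point is 1 library and each line a median. Adcyap1r1 and Gpr176 lie higher in SCN than in NAc and PFC without overlap, and Prokr2 and Vipr2 spread over 17.1-fold and 21.2-fold within SCN.

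Low libraries were largely shared between Vipr2 and Prokr2. SCN J1199, SCN J1018 and SCN J1011 were the lowest 3 for both, with Vipr2 at 1.32, 2.25 and 3.72 CPM and Prokr2 at 3.83, 3.84 and 8.93 CPM. SCN J1018 differed from SCN J1199 in Six6, a transcription factor of SCN neurons, which was at 18.1 CPM in SCN J1018 and at 3.03 CPM in SCN J1199, with a median of 20.4 and a maximum of 36.7 CPM over the 19 libraries. In SCN J1018, Avpr1a at 1.5 CPM, Prok2 at 0.971 CPM, Syt10 at 8.21 CPM and Rgs16 at 6.80 CPM were each the lowest of the 19 libraries. In the same library Adcyap1r1 at 178 CPM and its ligand gene Adcyap1 at 34.6 CPM were each the highest. Markers of other hypothalamic neurons summed to 306 CPM in SCN J1018 against a median of 157 CPM in the other 18 libraries, and 162 CPM of that was Pomc alone, whose median in the others was 2.76 CPM. Sst (93.8 CPM) was also the highest of the 19 and Oxt (32.6 CPM) the third highest, while Gal (5.74 CPM) and Trh (12.1 CPM) lay below their medians in the others. The part of these other neurons in the receptor levels was not tested.

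The levels of Gpr176 and Adcyap1r1 were then compared between regions. Both were highest in SCN, and Gpr176 was higher in NAc than in PFC. Gpr176 ranged from 6.98 to 14.5 CPM in SCN, from 3.1 to 6.33 CPM with a median of 4.38 in NAc, and from 2.5 to 3.75 CPM with a median of 2.86 in PFC. Adcyap1r1 ranged from 111 to 178 CPM in SCN, from 54.3 to 94.1 CPM with a median of 67.5 in NAc, and from 49.9 to 74.1 CPM with a median of 57.2 in PFC. For both receptors every SCN library lay above every NAc and every PFC library, while the NAc and PFC ranges overlapped. In bulk tissue, more cells that express a receptor and more RNA per cell cannot be told apart.

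**Figure D2:**
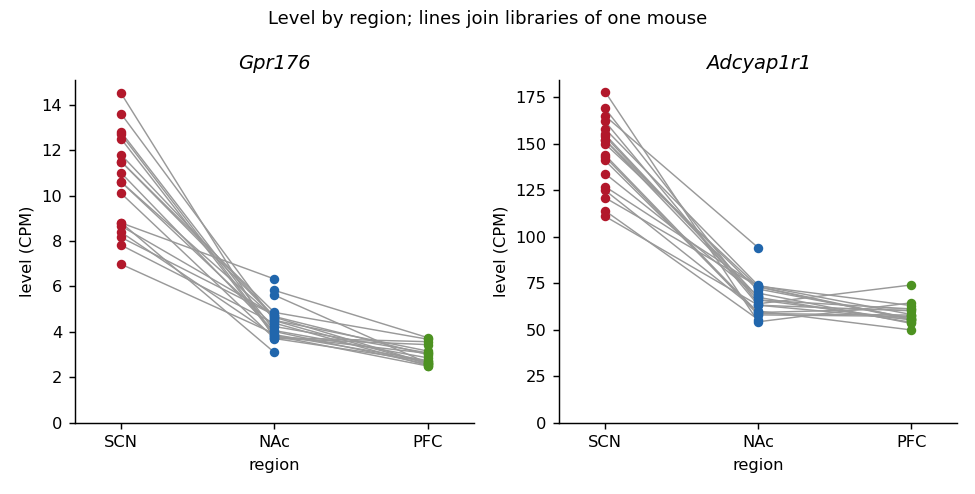
Level of Gpr176 and Adcyap1r1 in CPM by region, with 1 point per library and grey lines that join the libraries of 1 mouse. Every line falls from SCN to the next region, and for Gpr176 every line falls from NAc to PFC.

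Gpr176 was 2.40-fold higher in SCN than in NAc, a log2 difference of 1.26 (SE 0.073, adjusted p = 1.7e-24, edgeR's quasi-likelihood test with Benjamini-Hochberg adjustment), and was higher in SCN in 19 of 19 mice with both regions. Adcyap1r1 was 2.16-fold higher (log2 difference 1.11, SE 0.051, adjusted p = 1.8e-29), also in 19 of 19 mice. Both thus passed the threshold (a fold change of 1.2 or more and an adjusted p below 0.05), as did 33.1% of 11133 genes in this direction, and 5.63% of genes had every SCN library above every NAc library. Against PFC, Gpr176 was 3.55-fold higher in SCN (log2 difference 1.83, SE 0.085, adjusted p = 2.7e-29) and Adcyap1r1 2.48-fold higher (log2 difference 1.31, SE 0.058, adjusted p = 2.8e-30), each in 12 of 12 mice. In that comparison 33.7% of genes were higher in SCN by the same rule, and 8.96% had every SCN library above every PFC library. Without SCN J1199 and SCN J1140 the log2 differences from NAc were 1.31 for Gpr176 and 1.14 for Adcyap1r1, and without SCN J1165 they were 1.26 and 1.11. With mouse number J1165 left out, both receptors were higher in SCN than in NAc in 18 of 18 mice and than in PFC in 11 of 11.

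Between the regions without an SCN, the receptors differed less. Gpr176 was 1.48-fold higher in NAc than in PFC (log2 difference 0.57, SE 0.072, adjusted p = 2.2e-09, edgeR's quasi-likelihood test with Benjamini-Hochberg adjustment) and higher in NAc in 17 of 17 mice. Adcyap1r1 was 1.15-fold higher in NAc (log2 difference 0.20, SE 0.050, adjusted p = 0.00039), in 14 of 17 mice, which is below the fold change of 1.2. Of the 2 receptors 1 was therefore counted as changed, where 23.7% of 11569 genes were higher in NAc. Within the lower range of mouse numbers the log2 difference was 0.54 for Gpr176 and 0.17 for Adcyap1r1, and within the upper range 0.59 and 0.23. The difference between ranges passed the test for neither receptor (adjusted p = 0.89 for Gpr176 and 0.72 for Adcyap1r1) nor for any gene, with 0.0% of 11569 called and 2279 genes at an unadjusted p under 0.05.

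Markers of astrocytes, which also express Adcyap1r1, moved with region. All 5 astrocyte markers with rows in both tables (Gfap, Aqp4, Aldh1l1, Slc1a3 and Gja1) were higher in SCN than in NAc and than in PFC, with median log2 differences of 0.76 and 0.70, against 0.02 and 0.03 over all genes. Their summed level ranged from 728 to 1460 CPM in SCN, from 325 to 700 CPM in NAc and from 402 to 633 CPM in PFC. Oligodendrocyte markers summed to 297 to 2430 CPM in SCN, 494 to 1330 CPM in NAc and 112 to 367 CPM in PFC. Their part in the regional differences of Gpr176 and Adcyap1r1 was not tested.

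Of the 4 listed ligand genes, Vip and Adcyap1 had rows in both tables, and Prok2 and Avp were not compared between regions. Both Vip and Adcyap1 had their lowest median in NAc, unlike Gpr176 and Adcyap1r1, while Vip was also highest in SCN. Vip ranged from 4.47 through 46.7 to 120 CPM in SCN, from 0.142 through 1.33 to 6.38 CPM in NAc and from 16.4 through 19.7 to 26.3 CPM in PFC. It was higher in SCN than in NAc (log2 difference 4.72, SE 0.29) and than in PFC (1.23, SE 0.29). Adcyap1, which encodes PACAP, was higher in SCN than in NAc (log2 difference 2.55, SE 0.32), while its log2 difference from PFC was -0.71 (SE 0.34, adjusted p = 0.053, edgeR's quasi-likelihood test with Benjamini-Hochberg adjustment). That difference passed in the mice with both regions, at -0.85 with the mouse as a block (adjusted p = 0.00068) and -0.68 without the block (adjusted p = 0.0051), and at -0.77 without SCN J1165 (adjusted p = 0.04). Both were lower in NAc than in PFC, by log2 differences of -3.49 for Vip and -3.26 for Adcyap1. The median level of Adcyap1 was 15.0 CPM in SCN, 1.30 CPM in NAc and 26.3 CPM in PFC, so that this transcript was lowest in NAc. Vipr1, the VPAC1 receptor for the same peptides as Vipr2, had a row in the NAc and PFC table alone, with medians of 4.35 and 5.17 CPM.

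Of 21 listed genes that act downstream of these receptors (G proteins, adenylate cyclases, phospholipases C, Rgs16, protein kinase A subunits and Creb1), 20 had rows in both tables. In SCN against NAc, 10 were higher, 6 lower and 4 not called, with a median log2 difference of 0.26. Of all 11133 genes, 3680 were higher, 3455 lower and 3998 not called. In SCN against PFC, 7 were higher, 8 lower and 5 not called, with a median of 0.11, where 3753, 3448 and 3932 of all genes were. Gnaz, which encodes the alpha subunit of Gz, was 1.44-fold higher in SCN than in NAc (log2 difference 0.52, SE 0.071), and its log2 difference from PFC was 0.09 (SE 0.079, adjusted p = 0.30, edgeR's quasi-likelihood test with Benjamini-Hochberg adjustment). Between NAc and PFC the receptor and the G protein went opposite ways, as Gpr176 was higher in NAc and Gnaz lower, by a log2 difference of -0.43 (SE 0.068).

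The relation of each receptor to Six6 was examined across the 19 SCN libraries, as Six6 marks SCN neurons. It varied 12.1-fold between punches, or 5.67-fold without SCN J1199. Six6 did not follow the other markers in every library. In SCN J1018 it was at 18.1 CPM, near its median of 20.4 CPM, though the sum of SCN neuron markers ranked 18 of 19. Vipr2 and Prokr2 rose with Six6 with slopes near 1, Avpr1a and Gpr176 rose less steeply, and Adcyap1r1 did not pass the test. The slope, in log2 units of the receptor per log2 unit of Six6, was 1.01 for Vipr2 (SE 0.18, 95% interval 0.63 to 1.39, adjusted p = 0.0024, edgeR's quasi-likelihood test with Benjamini-Hochberg adjustment). It was 0.95 for Prokr2 (SE 0.17, 0.59 to 1.30, adjusted p = 0.0025), 0.41 for Avpr1a (SE 0.11, 0.19 to 0.64, adjusted p = 0.035) and 0.25 for Gpr176 (SE 0.056, 0.13 to 0.36, adjusted p = 0.015). For Adcyap1r1 it was 0.04 (SE 0.050, -0.07 to 0.15, adjusted p = 0.77). On Lhx1 in place of Six6 the slopes were 0.62 for Vipr2, 0.68 for Prokr2, 0.38 for Avpr1a and 0.21 for Gpr176, so the slope near 1 held for Six6 and not for Lhx1. On Six6, 4 of 5 receptors had a positive slope past the threshold, as did 1.26% of 12046 genes. The median slope was 0.41 over the receptors and 0.00 over all genes.

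**Figure D3:**
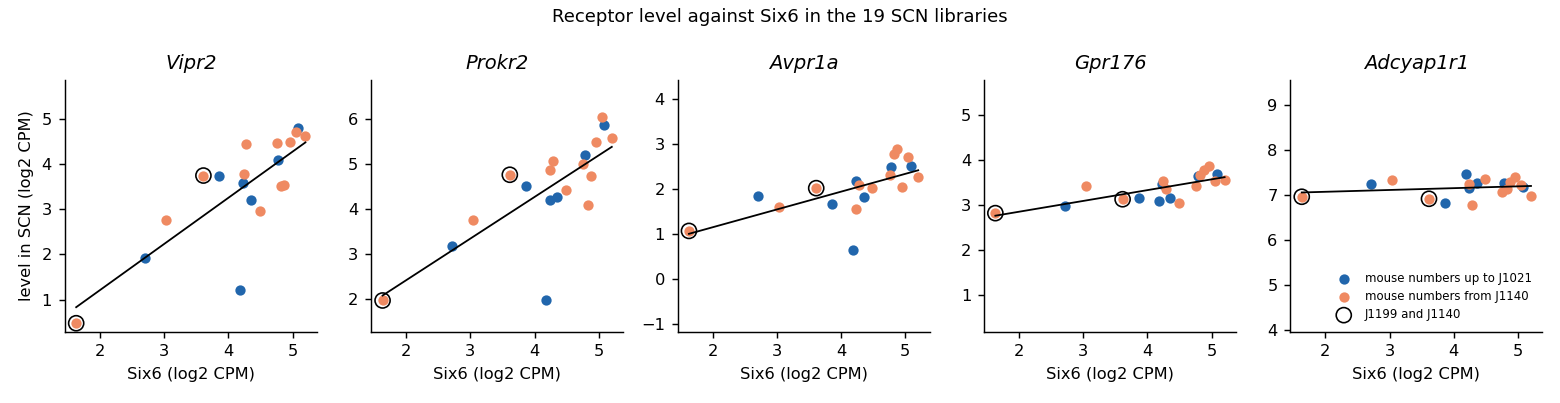
Level of each receptor against Six6 in the 19 SCN libraries, both in log2 CPM, with least-squares lines; blue points are mouse numbers up to J1021, orange points those from J1140, and open circles mark SCN J1199 and SCN J1140. All panels span the same number of log2 units, and the lines for Vipr2 and Prokr2 are steep while that for Adcyap1r1 is nearly flat.

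The slopes were compared between receptors by fitting the log2 ratio of each pair to Six6, for 10 pairs. The 95% interval of the difference left out 0 in 8 of them, with no adjustment for the number of pairs. Vipr2 was steeper than Gpr176 by 0.79 (0.40 to 1.17), than Avpr1a by 0.63 (0.27 to 0.99) and than Adcyap1r1 by 0.99 (0.51 to 1.46). Gpr176 was steeper than Adcyap1r1 by 0.20 (0.06 to 0.34). The difference between Vipr2 and Prokr2 was 0.10 (-0.05 to 0.25) and that between Gpr176 and Avpr1a was -0.16 (-0.38 to 0.07), so neither pair was separated at this number of libraries.

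Whether the slopes passed the test depended on which libraries entered, while most slopes moved little. Without SCN J1199 and SCN J1140 the slopes of Vipr2 (0.98, adjusted p = 0.034) and Prokr2 (0.98, adjusted p = 0.027) passed edgeR's quasi-likelihood test with Benjamini-Hochberg adjustment, while those of Gpr176 (0.26, adjusted p = 0.10) and Avpr1a (0.45, adjusted p = 0.12) did not. Leaving out SCN J1199 alone gave the same split, with adjusted p = 0.065 for Gpr176 and 0.11 for Avpr1a. SCN J1199 and SCN J1011, the 2 libraries farthest from the median of Six6, were also left out together. The slopes were then 0.79 for Vipr2, 0.87 for Prokr2, 0.56 for Avpr1a and 0.26 for Gpr176. By edgeR 0 of 5 receptors passed, with adjusted p = 0.081 to 0.13 for these 4, and 201 of 12046 genes did. At an unadjusted p under 0.05 there were 4 of 5 receptors and 2665 genes. Without SCN J1018 the slopes were 1.0 for Vipr2 and 0.94 for Prokr2. Within the 7 libraries of the lower range of mouse numbers the slopes were 1.10 for Vipr2, 1.06 for Prokr2, 0.33 for Avpr1a and 0.32 for Gpr176, and edgeR called 0 receptors and 0 of all genes, with 3 receptors and 1058 genes at an unadjusted p under 0.05. Within the 12 of the upper range, Vipr2 and Prokr2 passed, and Avpr1a (0.44) and Gpr176 (0.22) did not. The difference in slope between the ranges passed the threshold for 0 of 5 receptors (unadjusted p = 0.45 to 0.91, edgeR), and for 1 of 12046 genes, or 0.0083%, with 587 genes at an unadjusted p under 0.05.

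The same relation was described by correlation across libraries. Pearson's r with Six6 was 0.79 for Vipr2, 0.75 for Gpr176 and 0.75 for Prokr2, with adjusted p = 0.028, 0.014 and 0.039 by permutation tests of 100000 resamples over all genes (unadjusted p = 0.00029, 7e-05 and 0.00055). It was 0.64 for Avpr1a (adjusted p = 0.13, permutation test) and 0.19 for Adcyap1r1 (adjusted p = 0.79, permutation test). A positive correlation past the threshold was found for 3 of 5 receptors and for 0.822% of genes. Spearman's rho was 0.74 for Vipr2, 0.78 for Gpr176, 0.77 for Prokr2, 0.77 for Avpr1a and 0.13 for Adcyap1r1, with adjusted p = 0.029, 0.013, 0.016, 0.014 and 0.79 by permutation tests. Without the 2 libraries farthest from the median, r was 0.54 for Vipr2, 0.58 for Gpr176, 0.55 for Prokr2, 0.60 for Avpr1a and 0.11 for Adcyap1r1. After adjustment 0 receptors and 104 of 12046 genes passed. At an unadjusted permutation p under 0.05 there were 4 receptors and 2286 genes. Within the lower and upper ranges of mouse numbers r was 0.65 and 0.87 for Vipr2, 0.81 and 0.74 for Gpr176, 0.60 and 0.87 for Prokr2, 0.36 and 0.81 for Avpr1a, and 0.08 and 0.25 for Adcyap1r1.

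Six6 was also compared with library quality. Its r was 0.19 with log2 total count (p = 0.44, permutation test), -0.29 with the share of mitochondrial ribosomal RNA, which ran from 20.5% to 51.6% (p = 0.21, rho = -0.51 with p = 0.028, permutation tests), and -0.41 with the share of Gm42418, Gm26917 and Gm23935, which ran from 8.96% to 19.3% (p = 0.075, rho = -0.51 with p = 0.027, permutation tests). With all mitochondrial genes and Gm42418, Gm26917 and Gm23935 left out of the counts, 4 of 5 receptors passed as before. The part of RNA composition in the slopes was not tested further.

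Ligands and partners of the receptors were read on the same scale. Of the 4 ligand genes, Avp had a positive slope on Six6 (0.74, SE 0.11, adjusted p = 0.00057, edgeR's quasi-likelihood test with Benjamini-Hochberg adjustment), and Vip (0.76, SE 0.24, adjusted p = 0.10), Prok2 (0.60, SE 0.19, adjusted p = 0.093) and Adcyap1 (-0.23, SE 0.17, adjusted p = 0.58) did not pass. By DESeq2 Vip and Prok2 passed (adjusted p = 0.024 and 0.047), and with Lhx1 in place of Six6 they passed (adjusted p = 0.003 and 0.043) while Avp did not (0.39, adjusted p = 0.059). Levels in SCN ran from 20.6 to 168 CPM for Avp, from 0.971 to 22.1 CPM for Prok2 and from 6.09 to 34.6 CPM for Adcyap1. Grpr, the gastrin-releasing peptide receptor, was the 1 other listed receptor with a row in the SCN table and had a slope of 0.75 (SE 0.12, adjusted p = 0.001). Of 21 signalling genes 1 passed, Rgs16 at 0.80 (SE 0.14, adjusted p = 0.0025), which encodes a regulator that shortens G-protein signals in SCN neurons, and their median slope was 0.02. Gnaz had a slope of 0.11 (SE 0.062, adjusted p = 0.44).

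**Figure D4:**
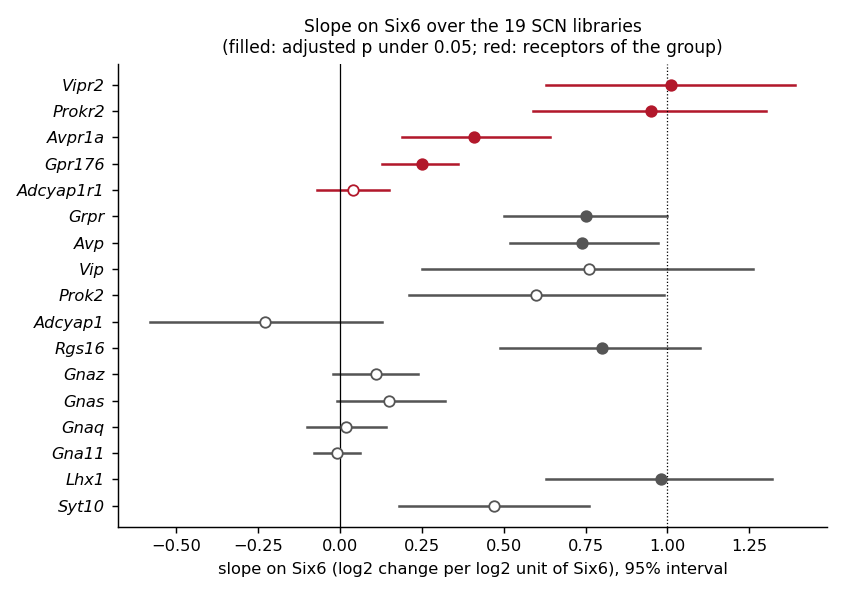
Slope on Six6 over the 19 SCN libraries, in log2 change per log2 unit of Six6, with 95% intervals as lines; red marks the 5 receptors, grey other listed genes, filled points those with an adjusted p under 0.05, and the dotted line a slope of 1. Vipr2 and Prokr2 lie at 1.01 and 0.95, and Adcyap1r1 at 0.04 with an interval that holds 0.

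Markers of other cell types were tested in the same fit. Of the SCN neuron markers besides Six6, 3 of 7 had a positive slope past the threshold (Lhx1, Nms and Avp). The slopes of Vip (0.76), Prok2 (0.60), Grp (0.57) and Syt10 (0.47) were positive too but did not pass. Over all 12046 genes, 152 passed with a positive slope and 235 with a negative one. None of 6 astrocyte, 5 ependymal, 5 oligodendrocyte and 3 endothelial markers passed edgeR's test. Of 3 striatal markers, 2 passed with a negative slope (Ppp1r1b and Rgs9), and of 5 markers of other hypothalamic neurons, 1 did (Gal). Over all SCN libraries, r with Six6 was -0.56 for Ppp1r1b, -0.66 for Rgs9 and -0.16 for Drd1. Without SCN J1199 and SCN J1140 it was 0.14, -0.1 and 0.61, so the negative relation rested largely on these libraries. The striatal markers summed to 15.8 to 215 CPM over SCN libraries, and their part in the slopes of the receptors was not tested beyond leaving out SCN J1199 and SCN J1140.

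Finally, the genes whose SCN pattern was most like that of each receptor were found by Pearson's r of log2 CPM over the 19 libraries, among 12046 genes. These values are descriptions, and genes of 1 library share its depth and dissection. The gene most like Vipr2 was Prokr2 and the gene most like Prokr2 was Vipr2, at r = 0.97. Without SCN J1199 and SCN J1140 the r of this pair was 0.96 and again the highest for Vipr2. Over lower mouse numbers it was 0.98 and ranked 4 for Vipr2, and over upper ones it was 0.96 and ranked 2. Next were Relt (0.93) and Flt3 (0.92) for Vipr2, and Rora (0.93), a nuclear receptor of the clock's feedback loop, and B3gat2 (0.93) for Prokr2. Rgs16 had r = 0.92 with Prokr2 and ranked 5, and r = 0.89 with Vipr2 and ranked 14.

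**Figure D5:**
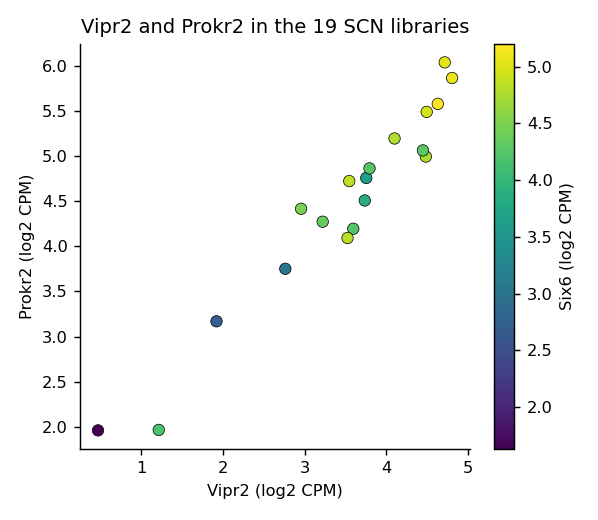
Prokr2 against Vipr2 in log2 CPM, with 1 point per SCN library coloured by Six6 in log2 CPM. The 19 points lie near 1 line, r = 0.97, from SCN J1199 and SCN J1018 at the low end, which differ in Six6, to the libraries with most Six6 at the high end.

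Avpr1a was most like Mcub (0.91), Prok2 (0.86) and Grp (0.86), the last 2 being SCN peptides, and its own ligand gene Avp had r = 0.66 and ranked 117. Gpr176 was most like Htr5a (0.87), a serotonin receptor, Fam53b (0.80) and Tox3 (0.79). Lhx1, a transcription factor of SCN neurons, had r = 0.78 with Gpr176 and ranked 9, and Rgs16 had r = 0.70 and ranked 59. Adcyap1r1 followed a different set, with Pgm1 (0.83), Scd2 (0.81) and Dtx4 (0.79), of which Scd2 is a fatty acid desaturase. Its r was -0.21 with Vipr2, -0.15 with Prokr2, -0.08 with Avpr1a and 0.22 with Gpr176, and with the 6 astrocyte markers it ran from 0.02 to 0.71. It was 0.71 for Aldh1l1 (rank 30), 0.54 for Slc1a3 (rank 326), 0.52 for Agt (rank 401), 0.36 for Gja1 (rank 1310) and 0.02 for Gfap and Aqp4. For Gja1 it was 0.79 over lower mouse numbers and 0.22 over upper ones. The ligand gene Adcyap1 had r = 0.49 with Adcyap1r1 and -0.45 with Vipr2. Over lower mouse numbers, Htr5a ranked 70 for Gpr176 (r = 0.88), Prok2 42 for Avpr1a (0.92) and Pgm1 195 for Adcyap1r1 (0.85). Over upper ones they ranked 3, 11 and 8, each with r = 0.86.

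The same measure was taken in the other regions. Over 26 NAc libraries the genes most like Adcyap1r1 were Olig1 (0.88), a transcription factor of the oligodendrocyte lineage, and Rftn2 (0.86), and over 17 PFC libraries they were Nek9 (0.79) and 2700062C07Rik (0.75). For Gpr176 they were Cdc25b (0.61) and Cox11 (0.61) in NAc, and Rell1 (0.85) and Sla (0.85) in PFC. The r between Gpr176 and Adcyap1r1 was 0.09 in NAc and -0.49 in PFC.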

How the data were processed

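Total RNA from frozen punches of SCN, NAc and PFC was made into libraries with a low-input Smart-seq kit and sequenced in pairs. The authors checked reads with FastQC 0.11.7, aligned them to GRCm38 with HISAT2 and counted reads per Ensembl gene with HTSeq in union mode, and deposited whole-number counts with no normalization, in 1 table for SCN and 1 for NAc and PFC. The counts are labelled as filtered, and the paper describes a filter on low levels, done region by region. A missing row may thus reflect a low level, and shares over all genes cover the rows kept. Rows differ between the tables, and a gene with a row in 1 table has no regional test across tables. The counting's strand setting is not given in the sources used here. Identifiers were matched to GENCODE M21 symbols for 12020 of 12047 and 11545 of 11569 rows.

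Levels are CPM with TMM factors over the 11133 genes in both tables. log2 CPM used a prior count of 2. Regions and slopes on Six6 were tested with edgeR 4.0.16 (R 4.3.3), by glmQLFit and glmQLFTest after filterByExpr, which removed no row, with Benjamini-Hochberg adjustment over all genes. A change between regions needed a fold change of 1.2 or more and an adjusted p below 0.05. SCN was compared with NAc and PFC in 1 fit of 62 libraries. The Six6 slope used TMM of the SCN table. Intervals of 95% came from the standard error and the residual degrees of freedom. Correlations used 100000 permutations (exact within the lower range), and intervals of slope differences used least squares. DESeq2 1.42.0 was an alternative. The scripts were checked on simulated counts. No pair of libraries of 1 region agreed within sampling noise, with a chi-square per gene of at least 13.1.

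Named genes were the receptors, their ligands, related receptors, signalling genes and cell type markers, and for each receptor the 3 (SCN) or 2 (NAc, PFC) genes with the highest r. SCN J1018 was singled out after its values were seen. The receptors and lists were chosen with earlier results of these data known. 1 listed cell type marker is not reported here and was left out of the counts and sums. Prokr1, Avpr1b, Avpr2, Oxtr, Nmur2, Mtnr1a and Mtnr1b were not analysed here. Mouse numbers were taken to pair the samples, since each library came from 1 animal and carries its number; the Xist level of SCN J1165 differs from that number's other libraries, and the block was also fitted without J1165; deviations from region means of the same mouse had a median r of -0.003 for NAc and PFC, 0.001 for SCN and NAc and 0.099 for SCN and PFC. The region tests did not use the pairing, and fits with the mouse as a block were run beside them.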

Additional observations from a re-analysis of the deposited data

How the results depend on the processing

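For Gpr176 and Adcyap1r1, none of the 60 alternative values of the regional differences changed direction or call. Among them were DESeq2, DESeq2 size factors, both ranges of mouse numbers and the fits without SCN J1165. Adcyap1r1 between NAc and PFC had an adjusted p of 0.062 in the lower range (edgeR), against 0.00039 over all libraries. It was called in neither, as its fold change stayed below 1.2. With the mouse as a replicate block, the log2 differences were 0.56 and 0.17 for NAc against PFC, 1.29 and 1.13 for SCN against NAc, and 2.01 and 1.31 for SCN against PFC, for Gpr176 and Adcyap1r1 in turn, and without mouse number J1165, chosen after seeing the data, 1.29 and 1.13 for SCN against NAc and 2.04 and 1.30 for SCN against PFC. The block changed no call of a receptor, and of the other named genes it changed that of Adcyap1 between SCN and PFC, which passed at -0.85 and also, in the same mice, without the block. No paired analysis was possible for the Six6 relation because it comes from 1 region. The filter on low counts removed no row, so the fit without it says nothing about stability.

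Calls of the Six6 slopes depended on which libraries entered more than the slopes did. Without the 2 libraries farthest from the median of Six6 they were 0.79 for Vipr2, 0.87 for Prokr2, 0.26 for Gpr176 and 0.56 for Avpr1a, with 0 receptors and 201 genes called by edgeR (4 receptors and 2665 genes at an unadjusted p under 0.05), against 4 and 387 over all libraries. Without SCN J1199 and SCN J1140, Gpr176 at 0.26 and Avpr1a at 0.45 did not pass, Adcyap1r1 turned to -0.0083, and 2 receptors and 185 genes were called. The lower range gave 1.1, 1.06, 0.32 and 0.33 for Vipr2, Prokr2, Gpr176 and Avpr1a, with 0 receptors and 0 genes called (3 and 1058 unadjusted). The upper range gave 0.22 for Gpr176 and 0.44 for Avpr1a, with 2 receptors and 233 genes. With Lhx1 in place of Six6, 4 receptors and 873 genes were called, and the slope was 0.62 for Vipr2 and 0.68 for Prokr2. Of the ligands, Vip and Prok2 passed with DESeq2, Lhx1 and the mean z-score of Six6, Lhx1 and Syt10, Prok2 also in the upper range, and Avp did not pass with Lhx1 or in the lower range. Leaving out each SCN library in turn, chosen after seeing the data, gave slopes of 0.89 to 1.07 for Vipr2, 0.89 to 0.99 for Prokr2, 0.23 to 0.28 for Gpr176, 0.015 to 0.06 for Adcyap1r1 and 0.38 to 0.46 for Avpr1a, with 2 to 4 receptors and 285 to 403 genes called. Gpr176 did not pass without SCN J1199, and Avpr1a without any 1 of SCN J1199, J1160, J965, J1198, J1141, J1021 and J1177.

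For the correlation with Six6, r was 0.54, 0.58 and 0.55 for Vipr2, Gpr176 and Prokr2 without the 2 farthest libraries (0 receptors and 104 genes called), 0.68, 0.64 and 0.66 without SCN J1199 and SCN J1140 (0 and 100), 0.65, 0.81 and 0.60 in the lower range (0 and 0, with 1 and 936 unadjusted) and 0.87, 0.74 and 0.87 in the upper range (0 and 17), against 3 and 200 over all libraries. At an unadjusted permutation p under 0.05, 4 receptors passed in the first, second and last of these. So did 2286, 2153 and 1190 of 12046 genes in turn. Adcyap1r1 turned to -0.064 without SCN J1199 and SCN J1140. With Spearman's rho, Avpr1a passed at 0.77 and 402 genes were called. Fewer libraries entered each of these subsets; no other cause of the lost calls was tested. Vipr2 and Avpr1a had as few as 33 and 34 counts in a library, which limits the precision of their lowest values.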
